A study of Arabidopsis thaliana with 3 samples.

Results

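Stomata are pores of the leaf epidermis, each bounded by a pair of guard cells, and 9 genes that act in making or operating them are described here. The members were SPCH (AT5G53210), MUTE (AT3G06120), FAMA (AT3G24140), EPF1 (AT2G20875), EPF2 (AT1G34245), TMM (AT1G80080), SLAC1 (AT1G12480), KAT1 (AT5G46240) and OST1 (AT4G33950). They were chosen by locus, as the probes whose transcript accession belongs to these 9 loci, out of 25383 loci with a probe on the array. Each member had 1 probe with 1 spot per array, so no second probe checks a member's value.

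The seedlings were 7 days old and whole, and their RNA was read on 3 Agilent arrays with 2 colours each. On 2 arrays, labelled as biological replicates, RNA of untreated fe-1 seedlings was in Cy5 and RNA of untreated wild type of the L.er (Landsberg erecta) accession in Cy3, both at zeitgeber time 15 h. The remaining array held 35S::FE-GR (#5) at zeitgeber time 14 h, with RNA of seedlings submerged for 2 h in 1 µM dexamethasone (Dex) in Cy5 and RNA of the mock treatment in Cy3. All plants grew in long days on medium with 1% sucrose at 22 °C. FE (AT1G79430, also named APL) encodes a MYB-related factor known from phloem development. FE-GR joins it to the hormone-binding domain of the glucocorticoid receptor, so that Dex lets the fusion enter the nucleus. The 35S promoter is active in most tissues, so FE-GR is not limited to phloem, and #5 is the 1 line that was measured. Landsberg erecta is named for its erecta allele, a lesion in the receptor kinase gene ER of the stomatal pathway. The labels do not give the accession of the FE-GR line or describe the fe-1 lesion.

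The stomatal lineage starts when SPCH, a basic helix-loop-helix factor, drives asymmetric divisions of young epidermal cells. Its relative MUTE then ends those divisions, and FAMA stops division and drives guard cell differentiation. The secreted peptides EPF2 and EPF1 limit entry into the lineage and keep stomata apart, acting through ERECTA-family receptor kinases and the receptor-like protein TMM. In the mature guard cell, the kinase OST1 transmits the abscisic acid signal to the anion channel SLAC1, which closes the pore, while the potassium channel KAT1 serves opening.

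The precision rests on the small number of arrays. Well above background were 72.1% to 74.8% of gene spots in Cy5 and 75.1% to 78.1% in Cy3, and 0 gene spots were saturated. FE itself was at -0.17 ± 0.031 (SD, n = 2) as log2 of fe-1 over wild type (limma adjusted p = 0.0432), a call kept under 1 of 8 alternatives and not shared by its other probes, and at -0.26 on the Dex array, where median centring gave 0.10. These FE ratios therefore check neither genotype nor treatment. The raw signals of that FE probe were 16559 in Cy5 and 10113 in Cy3 on the FE-GR array. On the fe-1 arrays they were 843 and 1033 in Cy5 and 866 and 923 in Cy3, without scaling between arrays. The epidermal marker genes ATML1, PDF1, PDF2, FDH, CER6 and LTP1 were all measured, as were 5 of 5 green tissue, 4 of 4 root hair, 3 of 3 phloem and 3 of 3 trichome markers in the fe-1 comparison, although in fe-1 and on the Dex array the trichome gene GL3 was not well above background. In whole seedlings, fewer stomatal cells and less RNA per cell cannot be told apart. Both fe-1 arrays lay on the same slide, and no array had its dyes swapped. Dye effects of a probe and effects of genotype or Dex therefore cannot be told apart.

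In fe-1, 3 of the 9 members were higher than in wild type and 0 were lower at a limma adjusted p under 0.05. The 3 were SLAC1, EPF1 and FAMA, each by under 1.5-fold, and the other 6 did not pass. Over all 20680 genes tested, 20.3% passed in either direction, 8.9% higher and 11.4% lower, so the members' count of 3 higher is to be read against 8.9%. At an unadjusted p under 0.05 the members' counts were also 3 and 0, beside 16.1% higher and 19.8% lower over all genes. The median of the members was 0.09 on the log2 scale, against -0.01 over all genes tested, and was 0.09 on each of the 2 arrays. The 9 member probes were well above background in all 6 channels of the 3 arrays, so no member entered through 1 group alone.

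**Figure D1:**
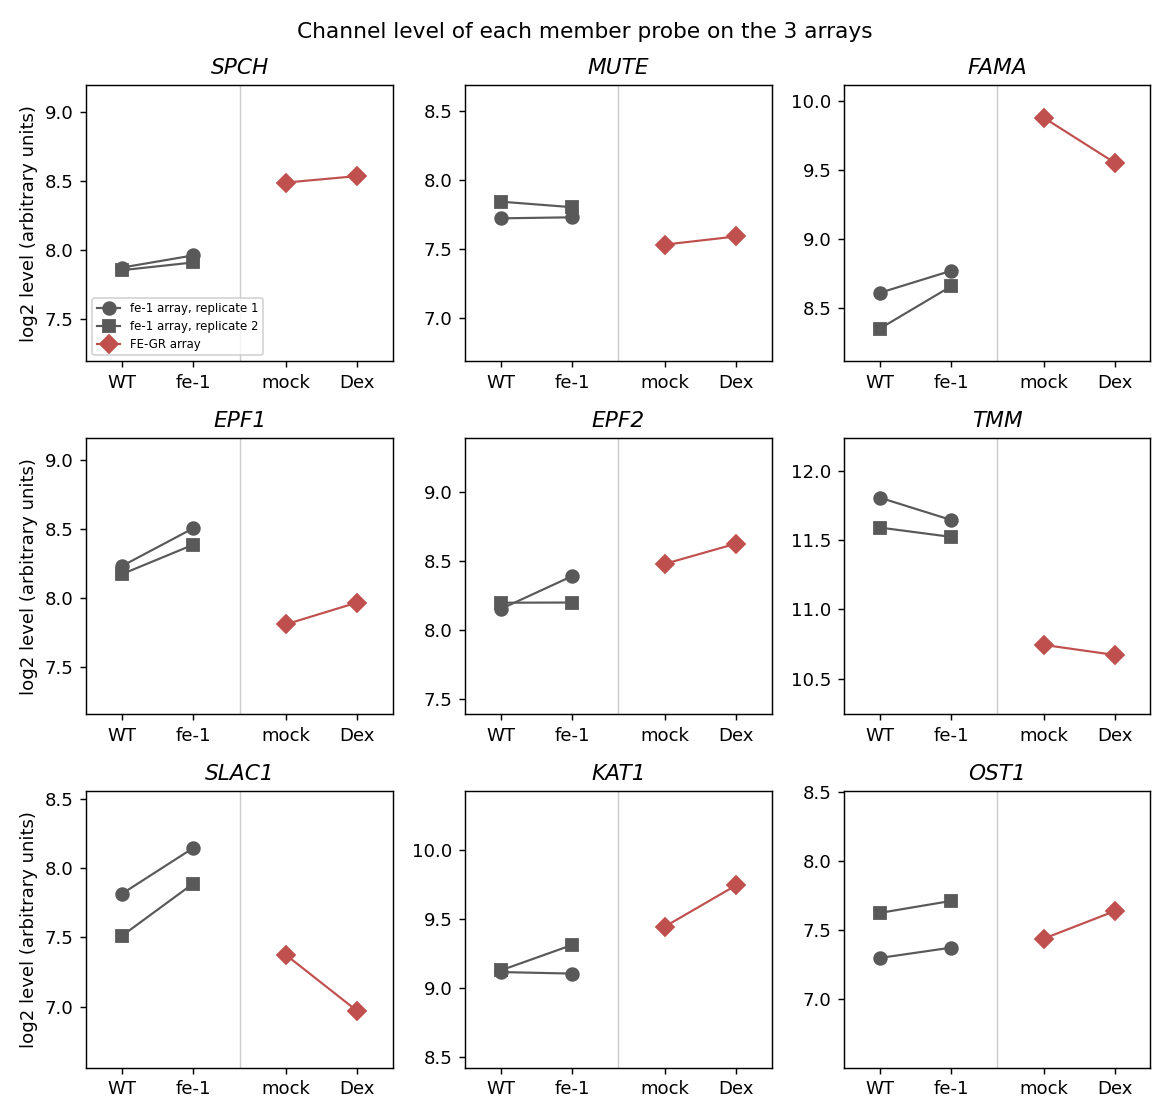
Log2 level (arbitrary units) of each member's probe in each channel, with the channels of 1 array joined by a line. Wild type and fe-1 share a scale, the mock and Dex channels were scaled on their own, and SLAC1, EPF1 and FAMA are above their wild-type channels on both fe-1 arrays.

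The levels below are log2 channel levels after background correction and normalization, in arbitrary units. They may be compared between fe-1 and wild type for 1 probe, but not between probes or with the Dex array. Among the 3 lineage factors, FAMA read 8.77 and 8.66 in fe-1 (replicates 1 and 2) and 8.61 and 8.35 in wild type. Both fe-1 values lay above both wild-type values. FAMA rose by 0.23 ± 0.10 (SD, n = 2), or 1.17-fold, with limma adjusted p = 0.0245, and its array ratios were 0.16 and 0.31. SPCH, which opens the lineage, read 7.96 and 7.91 in fe-1 and 7.87 and 7.85 in wild type. Its groups did not overlap either, but the array ratios were only 0.09 and 0.06, and the mean of 0.07 ± 0.023 did not pass (adjusted p = 0.323), with a 95% interval of -0.04 to 0.18. MUTE, the factor of the step between them, read 7.73 and 7.81 in fe-1 and 7.72 and 7.85 in wild type. The MUTE groups overlapped, its array ratios were 0.01 and -0.04, and its mean was -0.02 ± 0.034 (adjusted p = 0.840, interval -0.13 to 0.10), turning to 0.15 with the scanner's processed signals.

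Of the signalling members, EPF1, the peptide that acts late in the lineage, read 8.50 and 8.38 in fe-1 and 8.23 and 8.17 in wild type. EPF1 rose by 0.24 ± 0.043, or 1.18-fold, with limma adjusted p = 0.0140 and no overlap of the groups, and its array ratios were 0.27 and 0.21. EPF2, its early-acting relative, read 8.39 and 8.20 in fe-1 and 8.15 and 8.20 in wild type. The 2 arrays differed for EPF2, at 0.24 on replicate 1 and 0.00 on replicate 2, and its mean of 0.12 ± 0.17 did not pass (adjusted p = 0.225, interval -0.03 to 0.27). TMM, the receptor-like partner, read 11.65 and 11.53 in fe-1 and 11.81 and 11.59 in wild type. TMM read lower on both arrays, at -0.16 and -0.07, but its groups overlapped and the mean of -0.11 ± 0.066 did not pass (adjusted p = 0.151, interval -0.23 to 0.00). TMM lies on chromosome 1 with 65 protein-coding genes between it and FE in the RefSeq gene order, whereas EPF2 and SLAC1, also on chromosome 1, have 3592 and 5747 between. What linkage to FE adds to the TMM ratio was not tested.

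Of the guard cell members, the anion channel gene SLAC1 read 8.15 and 7.89 in fe-1 and 7.82 and 7.51 in wild type. It had the highest ratio of the 9, a rise of 0.35 ± 0.033 or 1.28-fold (limma adjusted p = 0.00312, interval 0.24 to 0.47), and stood at percentile 98.3 of all genes tested. Its array ratios were 0.33 and 0.38. The raw median signals of its spot were 264 and 280 in Cy5, over local backgrounds of 59 and 59, and 166.5 and 143 in Cy3, over 19 and 15.5. SLAC1 was thus read from modest signals. KAT1, the potassium channel gene, read 9.11 and 9.31 in fe-1 and 9.12 and 9.13 in wild type. Its arrays went apart, at -0.01 and 0.18, and the mean of 0.09 ± 0.14 did not pass (adjusted p = 0.338, interval -0.05 to 0.22). OST1, the abscisic acid kinase gene, read 7.37 and 7.71 in fe-1 and 7.30 and 7.62 in wild type. Its array ratios were close to each other, at 0.07 and 0.09, but so small that they did not pass (0.08 ± 0.0084, adjusted p = 0.267, interval -0.03 to 0.19).

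In all, both fe-1 levels lay above both wild-type levels for 5 of 9 members, SPCH, FAMA, EPF1, EPF2 and SLAC1, and below them for 0. Over all genes tested, 19.7% had such a gap upward and 25.1% downward. The gap of EPF2 was close to a tie, its lower fe-1 level being 8.2005 and its higher wild-type level 8.1993. The 3 calls depended on the processing: SLAC1 and EPF1 kept theirs under 5 of 8 alternatives and FAMA under 4 of 8, while the ratios stayed above 0 in all 8, between 0.21 and 0.47 for SLAC1, 0.12 and 0.28 for EPF1, and 0.16 and 0.25 for FAMA. All 3 calls ended with the scanner's processed signals (adjusted p between 0.0557 and 0.151), with the series value table, and where spots of uneven local background on replicate 1 were kept, and that of FAMA also with a normexp offset of 16 (adjusted p = 0.0611).

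**Figure D2:**
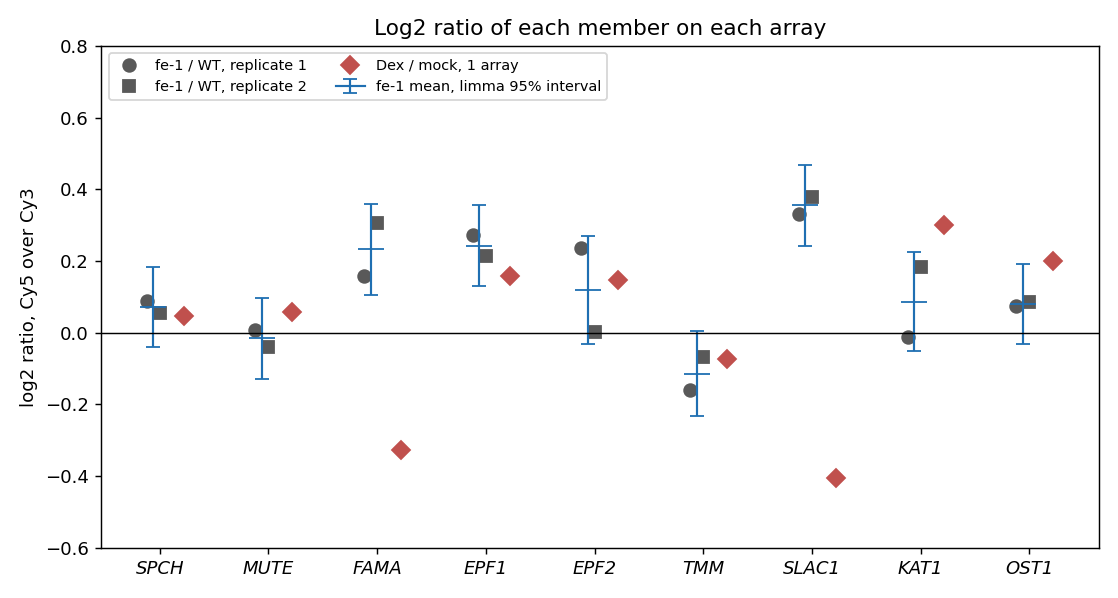
Log2 ratio of Cy5 over Cy3 (y axis) for each member on each array, with grey points for the 2 fe-1 arrays, a blue bar for their mean with limma's 95% interval, and a red diamond for the single Dex array. SLAC1 and FAMA read 0.35 and 0.23 in fe-1 and -0.41 and -0.33 on the Dex array, while EPF1 read above 0 on all 3.

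The Dex array asks which transcripts differ 2 h after FE-GR is released, and as a single array it gives values with no error and no test. Of the 9 members, 0 passed 1.5-fold in either direction, while 15% of the 20494 genes measured did, 6.95% higher and 8.07% lower. The members' median was 0.06, against 0.00 over all genes, and their ratios ran from -0.41 to 0.30. With median centring in place of loess the median of all genes moved to 0.22, so ratios on this array are relative to the normalization. That setting put the share of higher genes among those past 1.5-fold at 72%, against 46.3% as reported.

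SLAC1 had the lowest member ratio on the Dex array, at 6.97 with Dex and 7.37 with mock, a log2 ratio of -0.41 or 1.32-fold lower. It was also the member that crossed 1.5-fold in another setting, at -0.79 with the scanner's processed signals. Its raw Cy5 signal there was 149 over a local background of 59, and its Cy3 signal 104.5 over 19. FAMA followed with 9.55 with Dex and 9.88 with mock, a ratio of -0.33 that was -0.04 with median centring. SLAC1 and FAMA are also members that rose in fe-1. The dyes ran the same way on all 3 arrays, and the part of dye effects in these ratios was not tested. Of the 1815 genes called higher in fe-1 and measured on the Dex array, 43.2% read below 0 there, against 49.3% of all genes measured and 60.5% of the genes called lower in fe-1. EPF1, the remaining member that rose in fe-1, read 7.97 with Dex and 7.81 with mock, a ratio of 0.16 that was 0.25 with the scanner's processed signals.

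Among the other members KAT1 had the highest ratio on the Dex array, 0.30, from 9.74 with Dex and 9.45 with mock, and it reached 0.58 with median centring. OST1 read 7.64 against 7.44, a ratio of 0.20 that was 0.41 with the scanner's processed signals. EPF2 read 8.63 against 8.48, a ratio of 0.15 that was 0.33 with median centring. SPCH and MUTE read 0.05 and 0.06, although SPCH was at 0.23 with median centring and MUTE at -0.04 with the scanner's processed signals. TMM read -0.07, from 10.67 with Dex and 10.74 with mock, and 0.26 with median centring. Within the fe-1 arrays the median SD between replicates was 0.0518, but no such spread is known for the Dex array.

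**Figure D3:**
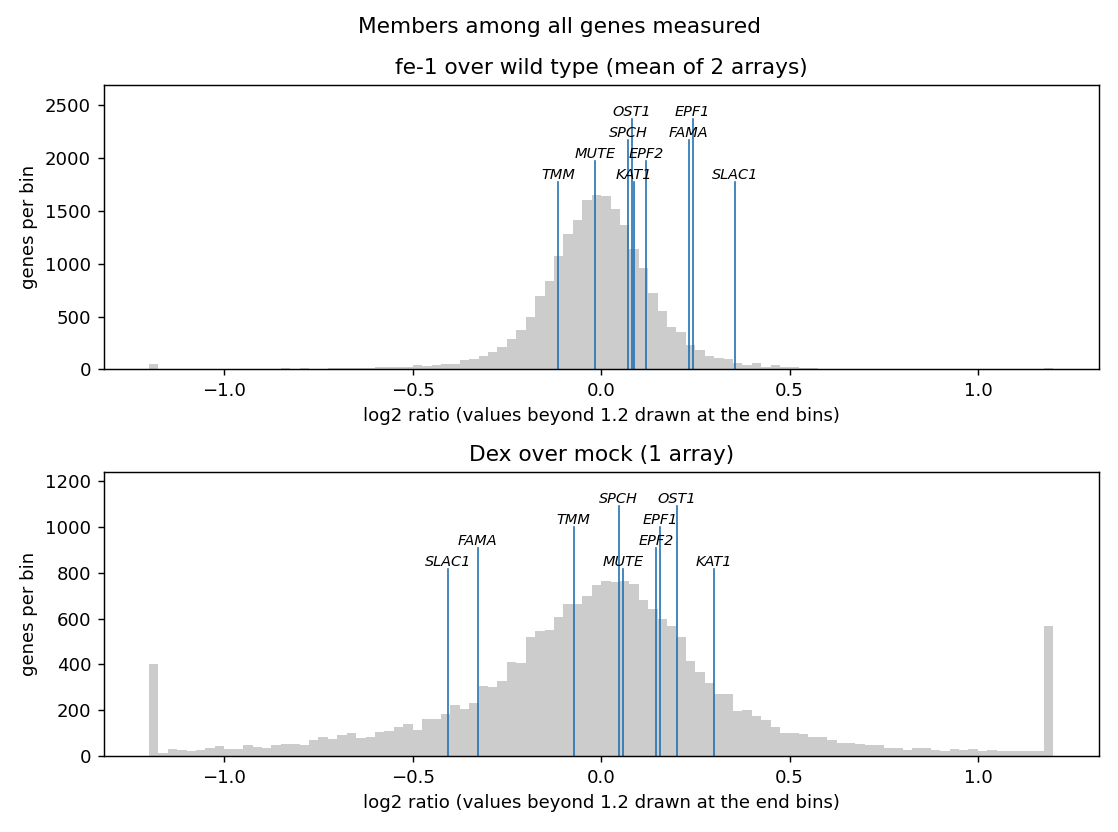
Histograms of the log2 ratios of all genes measured, for fe-1 over wild type (mean of 2 arrays) and for Dex over mock (1 array), with a blue line at each member and the number of genes per bin on the y axis. In fe-1 the members run from -0.11 for TMM to 0.35 for SLAC1, at percentiles 21 and 98.3 of all genes tested, and on the Dex array from -0.41 for SLAC1 to 0.30 for KAT1.

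Other genes of stomatal development were given by a list of 27 loci, of which 26 had a probe and were tested in fe-1. Of these, 5 rose, 1 fell and 20 did not pass, beside 8.9% higher and 11.4% lower over all genes, and the list's median was 0.01. SOL2 (AT4G14770, also TCX2), a DNA-binding regulator of lineage divisions, rose by 0.36 ± 0.0016 (limma adjusted p = 0.00275), but its second probe read -0.07 and 0.00 on the 2 arrays. SDD1 (AT1G04110), a subtilisin-like protease gene that restrains stomatal number, rose by 0.27 ± 0.054 (adjusted p = 0.00993). The MAP kinase cascade acts below the receptors. Its genes MPK3 (AT3G45640) and MKK4 (AT1G51660) rose by 0.20 ± 0.057 and 0.17 ± 0.012 (limma adjusted p = 0.0320 and 0.0429). MKK4 levels were 6.61 in fe-1 and 6.45 in wild type on replicate 1, but 8.84 and 8.66 on replicate 2, so the groups overlapped. Its raw signals on replicate 1 were low, 102 over a local background of 64 in Cy5 and 45 over 19 in Cy3. RBR1 (AT3G12280), the retinoblastoma homologue that holds back division, rose by 0.18 ± 0.041 (adjusted p = 0.0419), a call kept under 1 of 8 alternatives. CDKB1;1 (AT3G54180), a mitotic kinase gene, fell by 0.23 ± 0.055 (adjusted p = 0.0170). ER (AT2G26330), the receptor kinase gene with a lesion in Landsberg erecta, read -0.10 ± 0.066 (adjusted p = 0.193) in fe-1 and -0.25 on the Dex array, where median centring gave 0.08.

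On the Dex array 0 of the 26 stomatal development genes passed 1.5-fold upward and 3 downward, beside 6.95% and 8.07% over all genes. The list's median was -0.06. The lowest was CRSP (AT1G20160), a protease gene whose product processes EPF2, at -1.11 or 2.17-fold lower. FLP (AT1G14350), a MYB factor gene that limits the last division, read -0.72, with its other probe at -0.26. HDG2 (AT1G05230), a homeodomain factor gene of the epidermis, read -0.61, with its other probe at -0.17. The genes called in fe-1 stayed within 1.5-fold here, from -0.32 for CDKB1;1 to 0.34 for MKK4.

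A list of 39 further genes of guard cell function had 37 with a probe, all tested in fe-1. Of these, 3 rose, 1 fell and 33 did not pass, again beside 8.9% and 11.4% over all genes, with a median of -0.02. SLAH3 (AT5G24030), an anion channel gene related to SLAC1, rose by 0.56 ± 0.11 or 1.48-fold (limma adjusted p = 0.000780), and ALMT12 (AT4G17970), the rapid-type anion channel gene of guard cells, by 0.21 ± 0.038 (adjusted p = 0.0232). SLAH3 had array ratios of 0.64 and 0.49. Its levels differed more between replicates, at 10.53 in fe-1 and 9.90 in wild type on replicate 1 and 12.41 and 11.93 on replicate 2. The SLAH3 groups therefore overlapped. SLAH1 (AT1G62280), another relative of SLAC1, read 0.09 ± 0.14 (adjusted p = 0.338). GC1 (AT1G22690), whose promoter is used to drive genes in guard cells, rose by 0.46 ± 0.25 (adjusted p = 0.00811), at 0.63 and 0.28 on the 2 arrays. PYL2 (AT2G26040), an abscisic acid receptor gene, fell by 0.24 ± 0.051 (adjusted p = 0.0156). The calls of the 10 genes named here and above from the lists were kept under 1 to 5 of 8 alternatives.

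On the Dex array the same list had 4 genes higher past 1.5-fold, 7 lower and 26 within, beside 6.95% and 8.07% over all genes, and a median of -0.08. The lowest was SLAH3 at -1.63, and SLAH1 read -1.06 or 2.09-fold lower. ALMT12, called higher in fe-1, was within the bound at -0.52, and the difference between the comparisons was not tested. ABCG22 (AT5G06530), a transporter gene tied to stomatal closure, read -1.24, PHOT1 (AT3G45780), a blue light receptor gene for stomatal opening, -0.88 with its other probe at -0.32, and RBOHD (AT5G47910), an oxidase gene, -0.80. SCAP1 (AT5G65590), a DOF factor gene of guard cell maturation, read -0.70. PHOT2 (AT5G58140) read -0.60, but its other probes gave 0.17 and -0.06.

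Of the higher genes on the Dex array, KAT2 (AT4G18290), the closest relative of KAT1, stood at 1.53 or 2.90-fold. PYL1 (AT5G46790), an abscisic acid receptor gene, read 0.99, ABCC5 (AT1G04120), a transporter gene of guard cells, 0.89, and AHA1 (AT2G18960), a proton pump gene, 0.86, whose related sequences could share probes. KAT2 read 0.07 ± 0.0082 in fe-1 (limma adjusted p = 0.329). KAT2 and AHA-type pumps are also known from phloem, and of the 3 phloem markers SUC2 and AHA3 read 3.20 and 1.76 on this array and SEOR1 -0.14. The summed level of the 3 was 42826 with Dex and 8615 with mock in arbitrary units. The part of phloem cells in these ratios was not tested.

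**Figure D4:**
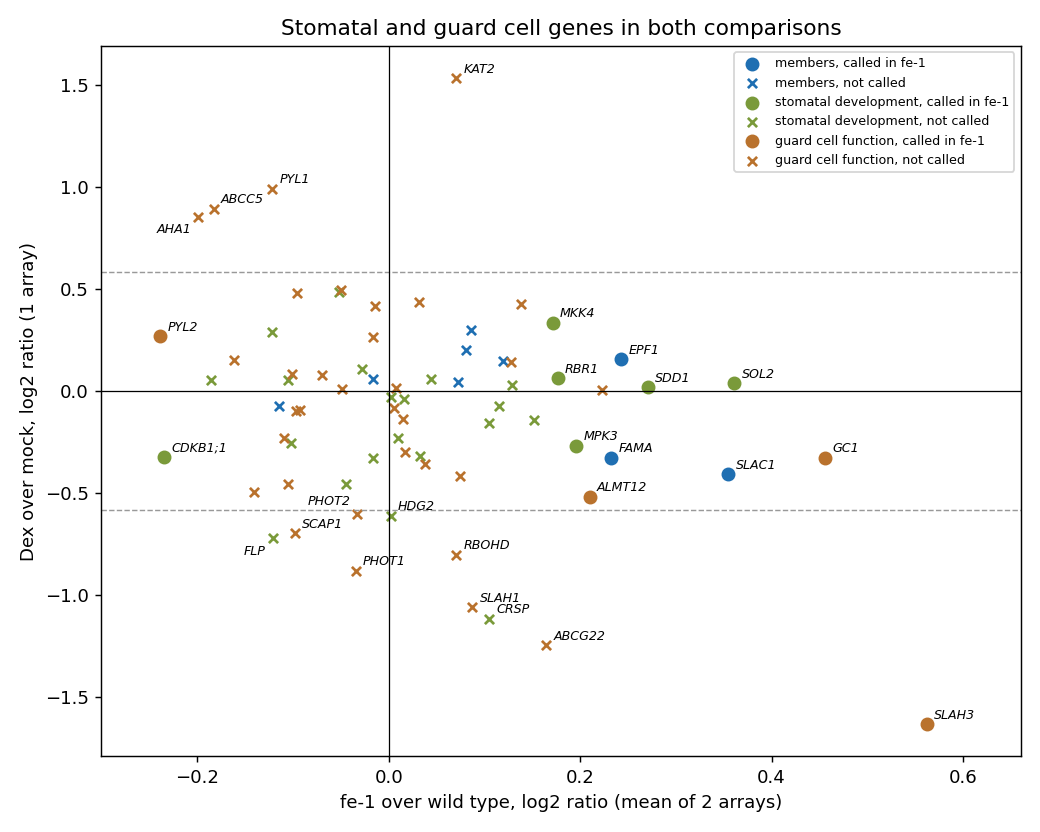
Log2 ratio on the Dex array (y axis) against the mean log2 ratio in fe-1 (x axis) for the members and for the genes of both lists, with filled points for genes called in fe-1 and dashed lines at 1.5-fold. SLAH3 is at the lower right, at 0.56 and -1.63, with SLAC1 at 0.35 and -0.41 and KAT2 at the top at 1.53.

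Marker genes of other cell types also differed between the samples. Their counts in fe-1 are to be read beside 8.9% higher and 11.4% lower over all genes tested. Root hair markers were lower in fe-1, 4 of 4 passing with a median of -1.15, and their summed level was 1211 and 1040 in fe-1 against 2497 and 2342 in wild type. Among epidermal markers, which the stomatal lineage shares, 2 of 6 rose and 0 fell. Those were PDF2 at 0.19 ± 0.027 and LTP1 at 0.19 ± 0.016, the other probe of PDF2 being at 0.17 and the other 3 of LTP1 between -0.06 and 0.08. Of the 6 epidermal markers, 5 read above 0 in fe-1. CER6 read -0.14 and did not pass (limma adjusted p = 0.0892), with its other probes also below 0 on both arrays. The list's median of 0.09 equalled that of the members to 2 decimals, while the stomatal development and guard cell lists had 0.01 and -0.02. The summed epidermal level was 102242 and 97084 in fe-1 against 92269 and 86812 in wild type, most of it from the LTP1 probe. Without LTP1 it was 24848 and 22381 against 23888 and 21826, and the groups overlapped. Among green tissue markers 1 of 5, RBCS1A, rose, by 0.56, although its 12 other probes read between 0.04 and 0.56, and the list's median was 0.00. On the Dex array 6 of 6 epidermal markers read below 0, beside 49.3% of all genes measured. Their median was -0.25, and CER6, a wax synthesis gene, was at -1.85. With median centring 2 of 6 read below 0, beside 31.5% of all genes, and their median was 0.10, against 0.22 over all genes. Whether the makeup of the seedlings had a part in the members' ratios was not tested.

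**Figure D5:**
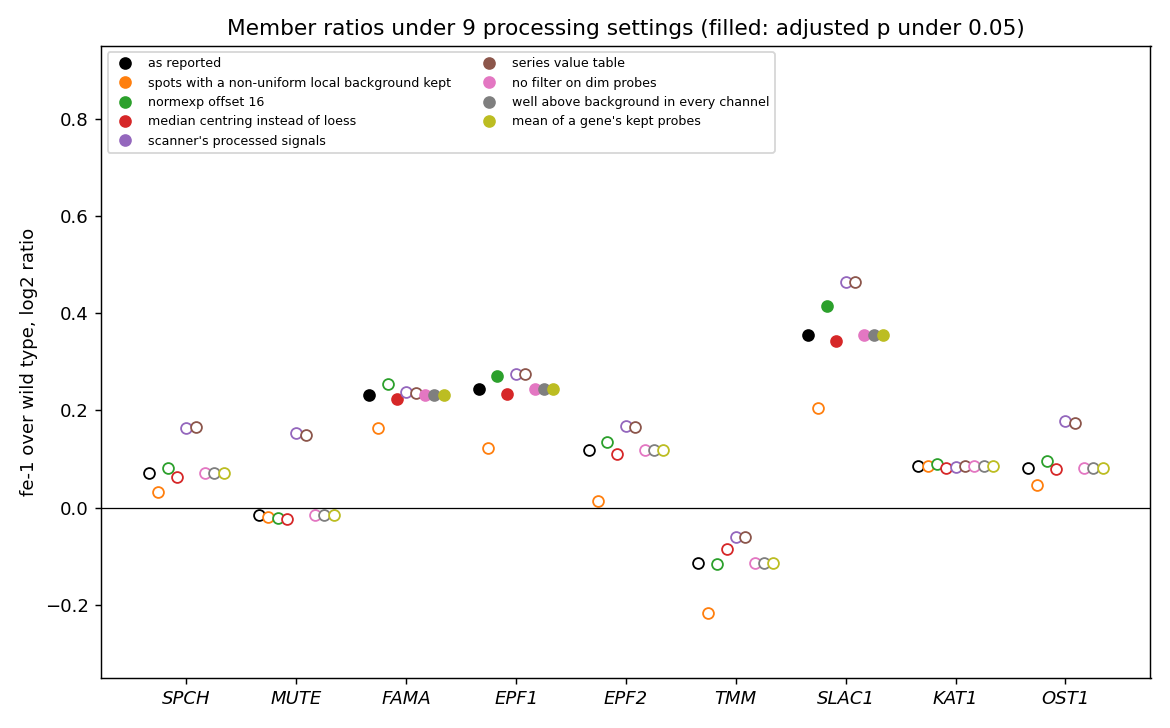
Log2 ratio of fe-1 over wild type (y axis) of each member under the reported processing and 8 alternatives, with filled points where the limma adjusted p was under 0.05. SLAC1, EPF1 and FAMA stay above 0 in every setting but are filled only in some, and MUTE moves from -0.02 to 0.15 with the scanner's processed signals.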

How the data were processed

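The authors deposited 1 scanner file per array with spot intensity values for both channels. Per the file headers the software was Agilent Feature Extraction 10.7.3.1, and the submitters' processing notes give 10.7. Median spot and median local background intensities were used, with the scanner's flags (other columns, 0 or 1) as deposited. The files also hold the authors' deposited log10 ratio of processed signals. The deposited series value table has log2 ratios, Cy5 over Cy3, that differed from it by at most 0.005 after conversion and had a median of 0 on each array. Later steps are not given in the sources used here.

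For the ratios reported, normexp background correction (offset 50, limma 3.58.1, R 4.3.3) was followed by loess within each array, control and outlier spots at weight 0. The 32 gene spots of fe-1 replicate 1 flagged for a non-uniform local background were left out first, and 8 to 43 of 43803 gene spots per array in all. Fe-1 channel levels were then scaled by Aquantile.

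Of 43603 probes, 34285 matched a locus by RefSeq accession (TAIR10.1 gene table, used for names and gene order only, since the array names an older build). Probes well above background in at least 2 of 4 fe-1 channels, or 1 Dex channel, were kept, and a gene was read from its brightest one. Where ABCG22 and AHA1 have several, the 2 comparisons used different probes. CYCD5;1, CPK23 and GHR1 had no matched probe.

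The fe-1 ratios were tested against 0 with lmFit and eBayes (1 residual and 6.54 prior degrees of freedom, Benjamini-Hochberg over 20680 genes). Whether replicates came from separate cultures is not stated, and the p-values cover only the spread between these arrays, which may be technical. Members and lists were chosen with earlier results of these data known. Named genes were all members and, from both lists, each gene called in fe-1 or past 1.5-fold on the Dex array, plus ER and FE. SLAH1, KAT2 and the cell type markers are given beside them. The fit was tested on simulated log2 ratios of 20680 genes. It called 13 of 50 genes with a true log2 size of 0.25 and 49 of 50 at 0.5. Changes of about 0.25 were thus mostly missed there, so not passing does not show that a gene was unchanged. No sequences were used here.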

Additional observations from a re-analysis of the deposited data

How the results depend on the processing

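The test on array ratios is already paired, since each array pairs 1 fe-1 with 1 wild-type sample. Both arrays lie on 1 slide, so no slide block could be fitted. The reported counts were 1841 genes higher and 2348 lower in fe-1, 3 and 0 members, 5 and 1 stomatal development genes, 3 and 1 guard cell genes, and 0 members past 1.5-fold with Dex. With the uneven-background spots of replicate 1 kept, 6 genes were higher and 40 lower (13% higher, against 43.9% as reported), and 0 members or list genes were called by limma, with 1 of 9 members at an unadjusted p under 0.05 (10.9% of all genes). The scanner's processed signals gave 139 higher and 415 lower (25.1% higher) and 0 members or list genes, with 6 of 9 members at an unadjusted p under 0.05 (31.2% of all genes), and 1 member past 1.5-fold with Dex. The series value table gave 0 genes in each direction, 6034 at an unadjusted p under 0.05 (29.2%) of which 5 were members, and also 1 member past 1.5-fold with Dex. Offset 16 gave 1015 higher and 1499 lower, with 2 members (FAMA lost), 2 stomatal development and 2 guard cell genes higher. Median centring gave 1494 lower and 2 stomatal development genes higher. With no filter on dim probes, or with the mean of a gene's probes, 3 stomatal development genes were higher, and with probes above background in every channel 3 guard cell genes were lower. MUTE in fe-1 turned to 0.15 with the scanner's processed signals (adjusted p = 0.144) and to 0.15 in the series value table (adjusted p = 0.150), and SLAH1 to -0.00075 with the uneven-background spots kept. Leaving out either fe-1 array leaves 1 array and no test, and the single-array ratios are given with each member. The causes of these changes were not tested. Low signals over background, as for SLAC1 and OST1, limit what a ratio of this size can show.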
